A study of Homo sapiens with 12 samples.

Results

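Expression of 39 genes was followed in cells of the breast cancer line MDA-MB-231 grown in a gel and exposed to Paclitaxel: 21 genes of glycolysis, with the transporters that bring in glucose and export lactate, and 18 other targets of the hypoxia-inducible factors (HIF). Within the treated samples, the fitted slope on dose was negative for 38 of the 39 genes, against 6946 of 11193 genes above 8 CPM (counts scaled to a common library size), and 9 of these slopes (23.1%, against 3.06% of all genes) passed the test: *ALDOC* and *ENO2* among the glycolysis genes, and *CA9*, *CA12*, *ANGPTL4*, *NDRG1*, *BNIP3L*, *P4HA1* and *P4HA2* among the other targets. Only the slopes of *ANGPTL4*, *CA12* and *P4HA2* passed with each treated sample left out in turn. The lowest dose, 0.0005 μM, held the highest mean of the 4 doses in 36 of the 39 genes (92.3%, against 30.4% of all genes and 47.1% of those above 8 CPM). *SLC2A3*, *ADM* and *DDIT4* were higher there than in untreated cells of the same day, where 2.34% of all genes passed, and none of the 3 calls held without either untreated sample of day 4 or without replicate 2 of 0.0005 μM. Against untreated cells of both days, the treated samples had more *SLC2A3*, *ADM*, *DDIT4* and *KDM3A* mRNA and less *SLC16A3* mRNA, 12.8% of the 39 genes against 24.4% of all genes; against untreated cells of day 4 alone the calls of *SLC16A3*, *ADM* and *KDM3A* were lost, and that of *SLC16A3* also with offsets for GC content and gene length. Without drug, *CA9* rose 2.74-fold and *NDRG1* rose 1.88-fold between day 2 and day 4, where 0.325% of all genes passed, and the call of *NDRG1* was lost in 14 of the 20 alternatives run.

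The genes were chosen by name for their roles, with no threshold on the measured values, out of 63568 gene identifiers in the count table. All 39 were found under a single symbol and all 39 passed the filter on low counts, which kept 25249 genes. The glycolysis genes are *SLC2A1*, *SLC2A3*, *HK1*, *HK2*, *GPI*, *PFKP*, *PFKL*, *PFKM*, *PFKFB3*, *PFKFB4*, *ALDOA*, *ALDOC*, *TPI1*, *GAPDH*, *PGK1*, *PGAM1*, *ENO1*, *ENO2*, *PKM*, *LDHA* and *SLC16A3*. The other HIF targets are *PDK1*, *CA9*, *CA12*, *ADM*, *ANGPTL4*, *NDRG1*, *DDIT4*, *BNIP3*, *BNIP3L*, *EGLN1*, *EGLN3*, *ANKRD37*, *KDM3A*, *MXI1*, *BHLHE40*, *P4HA1*, *P4HA2* and *ERO1A*.

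The study followed the migration of triple negative breast cancer cells in three-dimensional culture, and the RNA samples address how Paclitaxel, a drug that stabilizes microtubules, alters their transcriptome. The cells were MDA-MB-231, labelled wild type and carrying a green fluorescent protein, embedded in droplets of Matrigel, a basement membrane gel. There were 12 samples in 6 conditions of 2 samples each: untreated cells of day 2 (C1), untreated cells of day 4 (C2), and cells given Paclitaxel at 0.0005, 0.005, 0.05 or 0.5 μM on day 2 and taken on day 4. The day of dosing is that of the labels; the methods of the migration cultures give a later day and state none for the RNA cultures separately. All cells came from a single cell line, and the study's methods call the 2 samples of each condition biological replicates.

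Glycolysis splits glucose into pyruvate, and lactate dehydrogenase turns pyruvate into lactate, which leaves the cell together with a proton. When oxygen is short, HIF-1α and HIF-2α escape the prolyl hydroxylases that mark them for destruction, pair with ARNT and bind short DNA motifs near their targets. Those targets include most glycolytic genes, enzymes that regulate pH, proteins of mitophagy, collagen hydroxylases and the hydroxylases that restrain HIF itself. Many tumour cells run glycolysis at a high rate even when oxygen is present.

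The libraries held between 38380629 and 79169121 counts, of which the 39 genes took between 1.72% and 2.43%. Treated samples had more genes with at least 1 count than untreated samples, with ranges of 34591 to 39480 and 30608 to 33824. The pair of day 2 stood apart from the other pairs: the median gap between its samples was 0.46 log2 units over the 39 genes, against 0.07 to 0.16 in the other conditions, and its replicate 2 was the shallowest library, with the highest mitochondrial share (7.74%, against 3.73% to 6.2% elsewhere). Markers of the line (*VIM*, *CD44* and others, 6 genes) summed to 2932 to 3594 CPM in untreated and 2357 to 3053 CPM in treated samples. Between treated and untreated samples 1 of the 6 passed, as lower (16.7%, against 24.4% of all genes). Leukocyte markers (4 genes) summed to less than 0.38 CPM. The 8 fibroblast markers summed to 9.34 to 17.1 CPM in untreated and 13.1 to 21.8 CPM in treated samples, with *DCN* and *COL1A2* at 0.16 CPM or less in every sample, and *COL3A1* and *PDGFRA*, at most 1.52 and 2.16 CPM, higher with drug (log2 changes 2.03 and 2.73). The part of these markers in the results was not tested. In bulk RNA, fewer cells expressing a gene and less RNA per cell cannot be told apart.

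The levels per length, in CPM per kilobase of exon (RPKM), differed widely among the genes. The most abundant glycolysis genes were *GAPDH*, the enzyme that makes the NADH of the pathway, with a mean of 1299 RPKM over the 12 samples, then the enolase *ENO1* with 676.5 RPKM and the isomerase *TPI1* with 437 RPKM. *PFKFB4*, which makes an activator of phosphofructokinase, was the lowest of the 21 with 6.2 RPKM. Among the other HIF targets the highest were *P4HA1*, a subunit of collagen prolyl hydroxylase, with 83.6 RPKM, the mitophagy receptor *BNIP3* with 66.8 RPKM and the stress-responsive *NDRG1* with 60.8 RPKM. The carbonic anhydrase *CA12* was the lowest of the 18 with 3.01 RPKM.

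The most abundant genes had these levels by sample. *GAPDH* measured 2824 and 3577 CPM on day 2, 2435 and 3035 CPM on day 4, 3158 and 4764 CPM at 0.0005 μM, 2794 and 2877 CPM at 0.005 μM, 3120 and 2486 CPM at 0.05 μM, and 3105 and 3189 CPM at 0.5 μM. *ENO1* measured 3208 and 3275, 3214 and 3234, 3868 and 4823, 3341 and 3495, 3585 and 3102, and 3752 and 3446 CPM in the same order. *TPI1* measured 992 and 1310, 1111 and 1191, 1260 and 1531, 1094 and 1146, 1199 and 937, and 1219 and 1170 CPM. In all 3 the highest sample was replicate 2 of 0.0005 μM, and none of these genes passed in any of the comparisons. *BNIP3* measured 168 and 333, 238 and 314, 324 and 332, 257 and 288, 258 and 210.1, and 251 and 275 CPM, with its lowest and highest values both on day 2, and it passed in none of the comparisons.

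Some of these counts may include reads of other genes, because the strand setting of the counting is not given in the sources used here. Of the exon length of *CA9*, 35.7% is shared with *ARHGEF39* on the opposite strand, and of that of *ANKRD37*, 40.3% with *UFSP2*. The shares were 8.0% for *BNIP3L* with *PNMA2*, 7.1% for *PFKM* with *SENP1* and 5.2% for *SLC16A3* with *CSNK1D*. For *GAPDH*, *BHLHE40*, *ALDOC*, *ERO1A* and *P4HA2* they were 17.6%, 12.8%, 11.3%, 7.7% and 5.4%. The opposite-strand genes there had counts of at most 0.54% of those of the member. *TPI1*, *PGK1* and *ENO2* each have 1 further identifier whose counts were within 1% of theirs in every sample. Named processed copies number 64 for *GAPDH*, 42 for *BNIP3*, 13 for *PGAM1*, 6 for *LDHA*, 5 for *PKM* and 4 each for *TPI1* and *ENO1*. Their reads could have been split from or added to the parent gene. The counts of the copies were 6.61% of those of *BNIP3*, 2.0% of *LDHA* and 1.4% of *TPI1*, and at most 0.52% for the other 4 parents.

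**Figure D1:**
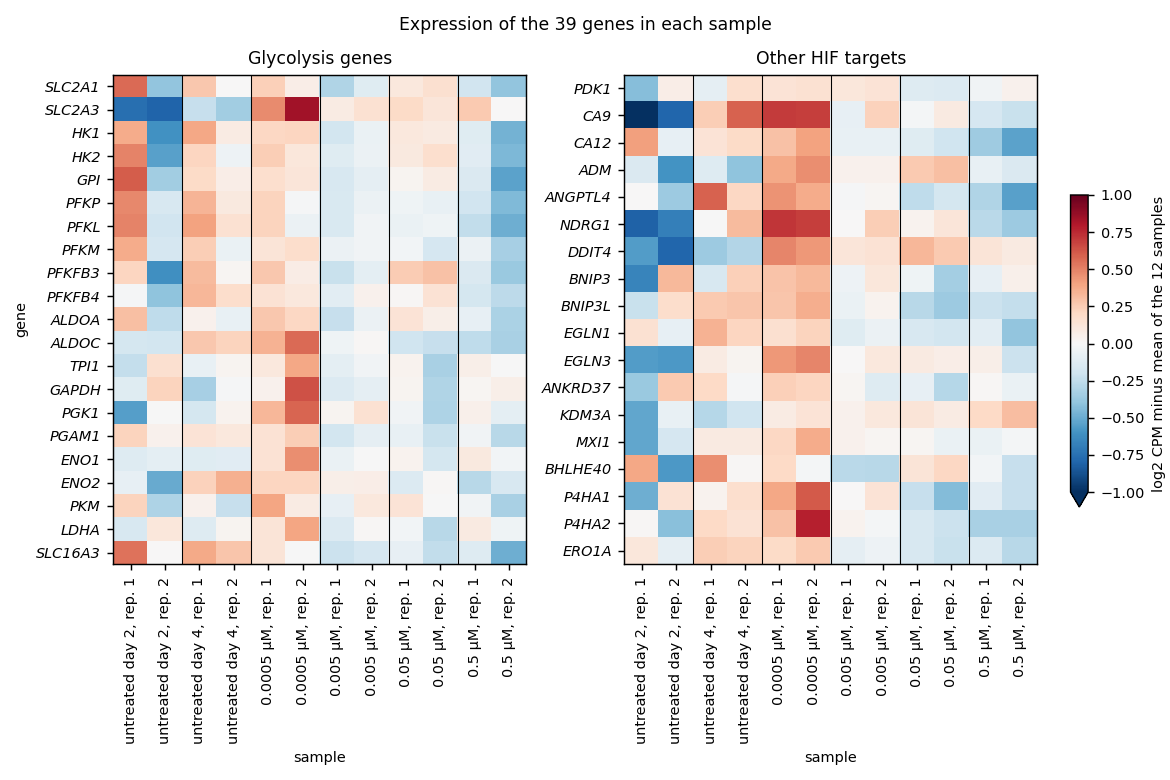
Deviation of the log2 CPM of each of the 39 genes (rows) from its mean over the 12 samples (columns), with red above and blue below that mean, in log2 units. The colour scale ends at 1 and -1, and *CA9* in replicate 1 of day 2 lies beyond it at -1.25. The columns of 0.0005 μM are mostly red and those of 0.5 μM mostly blue, and the columns of day 2 differ from each other.

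HIF binds to DNA at the core letters ACGTG or GCGTG. These letters were searched on both strands in the 300 bases around the start of each gene, 250 before it and 50 after, in RefSeq promoters of GRCh38.p14, in which 36 of the 39 genes have an entry. At least 1 match was present in 26 of the 36 promoters (72.2%), in 14 of 20 glycolysis genes and 12 of 16 other targets, against 17012 of all 35116 promoters (48.4%). The form ACGTG was present in 47.2% of the 36 and in 21.4% of all promoters. All promoters were taken without a filter on expression, gene type or base content, so they are not matched to the 36 in these respects. The promoters below belong to the genes that passed the test in the most comparisons among those holding a match, with ties settled by the smallest adjusted p, so that *CA9* and *ADM*, which passed as often as *CA12*, are not shown; the matches are in capitals, and CACGT and CACGC are the motif read on the other strand. *DDIT4* is given from chr10:72273674-72273973 on the plus strand, *ANGPTL4* from chr19:8363905-8364204 on the plus strand, *ALDOC* from chr17:28576846-28577145 on the minus strand and *CA12* from chr15:63381797-63382096 on the minus strand.
DDIT4: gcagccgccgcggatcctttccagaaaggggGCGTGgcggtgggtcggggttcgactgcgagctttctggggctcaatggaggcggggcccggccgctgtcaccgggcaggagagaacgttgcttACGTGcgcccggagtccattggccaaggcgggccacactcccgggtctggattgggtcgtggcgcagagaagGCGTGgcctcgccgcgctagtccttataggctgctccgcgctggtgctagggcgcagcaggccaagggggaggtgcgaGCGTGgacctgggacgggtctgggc
ANGPTL4: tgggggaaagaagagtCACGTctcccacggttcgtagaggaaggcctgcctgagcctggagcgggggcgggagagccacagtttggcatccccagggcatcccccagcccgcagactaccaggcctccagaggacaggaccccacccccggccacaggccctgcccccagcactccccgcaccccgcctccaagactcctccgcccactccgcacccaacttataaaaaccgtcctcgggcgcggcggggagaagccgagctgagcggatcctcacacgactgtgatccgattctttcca
ALDOC: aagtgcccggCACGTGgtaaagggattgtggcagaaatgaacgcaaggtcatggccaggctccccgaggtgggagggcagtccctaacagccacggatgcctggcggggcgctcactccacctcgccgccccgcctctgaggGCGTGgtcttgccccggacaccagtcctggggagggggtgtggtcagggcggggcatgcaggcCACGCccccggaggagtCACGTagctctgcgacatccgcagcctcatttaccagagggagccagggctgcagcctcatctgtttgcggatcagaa
CA12: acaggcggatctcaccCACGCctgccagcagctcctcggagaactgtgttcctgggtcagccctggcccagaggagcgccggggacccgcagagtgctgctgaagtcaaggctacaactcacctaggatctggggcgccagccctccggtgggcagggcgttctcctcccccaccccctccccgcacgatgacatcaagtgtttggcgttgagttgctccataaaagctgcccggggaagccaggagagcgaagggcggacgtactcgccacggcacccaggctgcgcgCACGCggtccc
*DDIT4* held 4 matches, with first bases 219, 125 and 53 bases before the start and at base 26 after it. *ANGPTL4* held 1, at 234 bases before the start, and *CA12* held 2, at 234 bases before and 40 after. *ALDOC* held 5, of which a pair overlap in the palindrome CACGTG. A match describes the letters only, and binding was not measured.

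In untreated cells day 4 was compared with day 2, without drug. The pair of day 2 held the shallowest library and the widest gap between its samples. Time in the gel and differences between these libraries cannot be told apart. *CA9* and *NDRG1* rose, and they were the only 2 of the 39 genes that passed the test (the quasi-likelihood test of edgeR, with p-values adjusted by Benjamini-Hochberg over all 25249 genes, here and below, and a call at an adjusted p under 0.05). Over all genes, 0.325% passed. Of the 18 other HIF targets 17 had a higher level on day 4, with a median log2 change of 0.26, whereas the 21 glycolysis genes were divided, with 11 higher, 10 lower and a median of 0.02. The median of all genes tested was -0.02. That of the 11193 genes above 8 CPM was -0.10, with 3566 higher and 7627 lower.

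*CA9*, a carbonic anhydrase on the cell surface that helps cells keep their internal pH under hypoxia, measured 2.95 and 4.06 CPM on day 2 and 8.35 and 10.6 CPM on day 4. The groups did not overlap, and the log2 change was 1.45 ± 0.20 (SE, n = 2 against 2; adjusted p = 0.00768). Samples were then left out 1 at a time, here and below. Without replicate 2 of C2 the change was 1.27, with an adjusted p of 0.0602. *ARHGEF39*, which overlaps *CA9*, did not pass the test and had a log2 change of -0.28 ± 0.16 (SE). *NDRG1* measured 396 and 433 CPM on day 2 and 694 and 865 CPM on day 4. Both samples of day 4 were above both of day 2, with a log2 change of 0.91 ± 0.16 (SE, adjusted p = 0.0373). The call of *NDRG1* was lost when any sample other than those of day 2 was left out, with log2 changes of 0.75 to 1.06 and adjusted p-values of 0.0532 to 0.369. It was also lost with RLE scaling (adjusted p = 0.0537), with GC and length offsets (0.129; 0.0642 with a replicate block) and in the fit of these 4 samples alone (0.998, and 0.948 for *CA9*).

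Among genes with higher values on day 4 that did not pass were a HIF target and a glycolysis gene. *EGLN3*, a prolyl hydroxylase of HIF, measured 19.7 and 19.4 CPM on day 2 against 30.6 and 29.5 CPM on day 4 (log2 change 0.62 ± 0.14 (SE), adjusted p = 0.107). *ENO2*, the enolase named for neurons, measured 98.9 and 73.8 CPM against 123 and 134 CPM (0.57 ± 0.15, adjusted p = 0.24). In some glycolysis genes the samples of day 2 lay on either side of those of day 4: *HK2*, the hexokinase that traps glucose in the cell, measured 162 and 78.7 CPM on day 2 and 133 and 111 CPM on day 4. Without replicate 1 or 2 of C1, 13 and 8 of the 39 genes and 2682 and 1884 of all genes passed, and the median of the glycolysis genes ranged from -0.07 to 0.38 over all samples left out in turn.

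**Figure D2:**
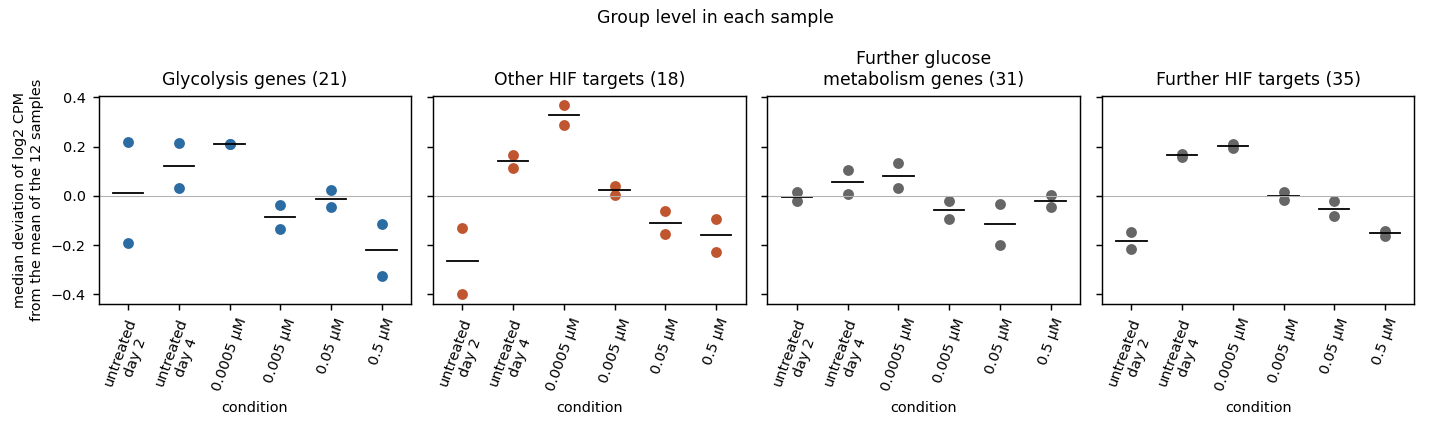
Median over the genes of a group of log2 CPM, each gene centred on its average across the 12 samples (y axis, log2 units), in each of the 6 conditions (x axis). Each point is a sample and each line the mean of a pair. The other HIF targets stood at -0.40 and -0.13 on day 2, 0.11 and 0.17 on day 4, 0.29 and 0.37 at 0.0005 μM, and -0.09 and -0.23 at 0.5 μM, whereas the day 2 samples of the glycolysis genes lay at 0.22 and -0.19.

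Each dose was then set against the untreated cells of day 4. These 4 comparisons share the same 2 control samples, so they are not independent of each other. At 0.0005 μM, *SLC2A3*, *ADM* and *DDIT4* rose and none of the 39 genes fell, where 2.34% of all genes passed. Levels were higher than in C2 for 28 of the 39 genes, with a median log2 change of 0.07 in the glycolysis genes and 0.22 in the other targets. The median was -0.01 over all genes and -0.04 over the 11193 genes above 8 CPM, of which 4898 were higher. The wide gap of the C1 pair enters the shared estimate of the spread. Without either of its samples, more of the 39 and more of all genes passed. Without either sample of C2 or replicate 2 of 0.0005 μM, the calls of *SLC2A3*, *ADM* and *DDIT4* were all lost. Those of *ADM* and *DDIT4* were also lost without replicate 1 of that dose.

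*SLC2A3* encodes GLUT3, a glucose transporter of high affinity. It measured 58.9 and 54.3 CPM in C2, 95.5 and 124 CPM at 0.0005 μM, 73.1 and 76.8 CPM at 0.005 μM, 78.8 and 74.9 CPM at 0.05 μM, and 82.8 and 69.2 CPM at 0.5 μM, after 41 and 39.6 CPM on day 2. All 8 treated samples were above all 4 untreated samples, and the pair at 0.0005 μM was the highest. The log2 change at 0.0005 μM was 0.95 ± 0.15 (SE, adjusted p = 0.00666), and it did not pass without either replicate of C2 or replicate 2 of 0.0005 μM (0.75 to 1.01, adjusted p = 0.0694 to 0.0971). At the other 3 doses the change was 0.41 to 0.44 and did not pass. *SLC2A1*, the more widely expressed transporter GLUT1, measured 241 and 200 CPM in C2 and 236 and 210 CPM at 0.0005 μM, with a log2 change of 0.02 ± 0.24 (SE).

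*DDIT4*, also known as REDD1, restrains mTORC1 under stress and low oxygen. Its 8 treated samples were all above the 4 untreated ones: it measured 42.1 and 35.8 CPM on day 2 and 48.1 and 50.5 CPM on day 4, but 86.6 and 83.3 CPM at 0.0005 μM, 67.2 and 68.4 CPM at 0.005 μM, 78 and 74.2 CPM at 0.05 μM, and 67.6 and 65.8 CPM at 0.5 μM. The log2 change was 0.78 ± 0.13 (SE, adjusted p = 0.00757) at 0.0005 μM and 0.63 ± 0.13 (SE, adjusted p = 0.0129) at 0.05 μM. At 0.005 and 0.5 μM the changes of 0.46 and 0.44 did not pass (adjusted p = 0.0776 and 0.0672). Both calls were lost without any 1 sample of the pairs compared (adjusted p = 0.0607 to 0.109 and 0.0746 to 0.143).

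*ADM*, the vasodilator peptide adrenomedullin, measured 33.4 and 27.7 CPM in C2 and 47.7 and 50.7 CPM at 0.0005 μM, then 37.6 and 37.8, 44 and 45.2, and 34.9 and 33.1 CPM at the rising doses. The pair at 0.0005 μM was above every other sample. Its log2 change of 0.69 ± 0.16 (SE) passed narrowly (adjusted p = 0.0492), and the call was lost without any 1 sample of day 4 (adjusted p = 0.0811 to 0.302). *NDRG1* was also highest there, at 1143 and 1124 CPM against 694 and 865 CPM in C2, with a log2 change of 0.54 ± 0.16 (SE) that did not pass (adjusted p = 0.113).

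At 0.005 μM none of the 39 genes passed, where 3.28% of all genes did. An unadjusted p under 0.05 was found for 6 of the 39 and for 4732 of all 25249 genes. DESeq2 called 1 of the 39 and 1360 of all genes, against 827 of all genes in the reported fit. Without either sample of C1, more of the 39 and more of all genes passed. Levels were lower than in C2 for 29 of the 39, as for 7784 of the 11193 genes above 8 CPM. The median log2 change was -0.23 for the glycolysis genes and -0.11 for the other targets, against -0.12 for those 11193 genes. With offsets for GC content and gene length 21 were lower, and the medians were -0.06 and 0.02. The offsets moved the median of all genes from 0.04 to 0.12. That median includes genes of low count, and the median of genes above 8 CPM with the offsets was not taken. Between 0.0005 and 0.005 μM, a comparison added after the data were seen, all 39 genes had a lower mean at the higher dose, and 38 with the offsets. The median log2 change was -0.33 in the glycolysis genes and -0.35 in the other targets, against -0.11 over the 11193 genes above 8 CPM, of which 8419 were lower. No gene passed (0% of all genes; 13 of the 39 and 2614 of all genes had an unadjusted p under 0.05), and DESeq2 called none of the 39 either. In a fit of those 4 samples alone, 16 of the 39 and 2187 of all genes passed.

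At 0.05 μM *ALDOC*, *ANGPTL4* and *BNIP3L* fell and *DDIT4* rose, where 8.32% of all genes passed. At 0.5 μM *ALDOC*, *ANGPTL4*, *CA12* and *EGLN1* fell and none rose, where 6.32% of all genes passed. The 4 calls of each dose are 10.3% of the 39 genes. Lower levels than in C2 were seen for 28 genes at 0.05 μM and 30 at 0.5 μM, and for 7367 and 7206 of the 11193 genes above 8 CPM. The median log2 changes were -0.10 for the glycolysis genes and -0.26 for the other targets at 0.05 μM, against -0.11 for the genes above 8 CPM. With the GC and length offsets the first was 0.01, and the median of all genes moved from -0.01 to 0.08. Those at 0.5 μM were -0.36 for the glycolysis genes and -0.33 for the other targets, against -0.11 for all genes above 8 CPM. With the offsets the median of the glycolysis genes at 0.5 μM was -0.20, that of all genes moved from 0.04 to 0.09, and 26 of the 39 genes were lower. With either sample of C1 left out, 12 of the 39 genes passed at 0.05 μM and 21 at 0.5 μM, with between 4818 and 5046 of all genes, whereas leaving out any 1 sample of day 4 left 0 or 1 at 0.05 μM and 0 to 2 at 0.5 μM.

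*ALDOC*, an aldolase isozyme, measured 106 and 103 CPM in C2, 112 and 130 CPM at 0.0005 μM, 85.1 and 88.6 CPM at 0.005 μM, 76.7 and 74.8 CPM at 0.05 μM, and 73.8 and 70.1 CPM at 0.5 μM. From 0.0005 μM onwards each pair was below the pair of the dose before, and the 3 higher doses were below C2. The 2 highest doses came down to or just under the level of day 2 (77.8 and 77.3 CPM). The log2 change was -0.46 ± 0.13 (SE, adjusted p = 0.0451) at 0.05 μM and -0.53 ± 0.13 (SE, adjusted p = 0.0321) at 0.5 μM. At 0.05 μM it was lost without any 1 sample of day 4 (adjusted p = 0.0623 to 0.237), and at 0.5 μM without any 1 sample of C2, 0.005 μM or 0.5 μM (0.0738 to 0.261). *ALDOA*, the main aldolase of most tissues, measured 874 and 804 CPM in C2 and 800.2 and 681 CPM at 0.5 μM and did not pass.

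*ANGPTL4*, a secreted inhibitor of lipoprotein lipase, measured 47.9 and 36.8 CPM in C2 and 43.5 and 41.1 CPM at 0.0005 μM. It then measured 31.6 and 32.2 CPM at 0.005 μM, 26.6 and 28.2 CPM at 0.05 μM, and 25.9 and 21.8 CPM at 0.5 μM, each pair below the one before. The log2 change was -0.63 ± 0.17 (SE, adjusted p = 0.0415) at 0.05 μM and -0.83 ± 0.17 (SE, adjusted p = 0.0174) at 0.5 μM. The call at 0.5 μM was lost without replicate 1 of C2 or either replicate of 0.5 μM (-0.99 to -0.63, adjusted p = 0.0539 to 0.208), and the call at 0.05 μM without any 1 sample of day 4 but replicate 2 of C2 (adjusted p = 0.0594 to 0.327).

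*BNIP3L*, the mitophagy receptor also known as NIX, measured 215 and 217 CPM in C2, 217 and 230.2 CPM at 0.0005 μM, 171 and 184 CPM at 0.005 μM, 148 and 139 CPM at 0.05 μM, and 154 and 152 CPM at 0.5 μM. All 6 samples of the 3 higher doses were below both C2 samples. The change at 0.05 μM was -0.59 ± 0.15 (SE, adjusted p = 0.0318) and was lost without any 1 sample of day 4 (adjusted p = 0.0535 to 0.164). Its overlapping neighbour *PNMA2* fell as well, by 0.53 ± 0.14 (SE, adjusted p = 0.0356), and the reads of the shared exons cannot be assigned to either gene. The related *BNIP3* measured 238 and 314 CPM in C2 and 258 and 210.1 CPM at 0.05 μM and did not pass.

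*CA12*, a second surface carbonic anhydrase, measured 22.7 and 23.5 CPM in C2 and 16.2 and 14.3 CPM at 0.5 μM, a log2 change of -0.60 ± 0.16 (SE, adjusted p = 0.0498). *EGLN1*, the main prolyl hydroxylase that restrains HIF, measured 127 and 116 CPM in C2 and 92.8 and 76.3 CPM at 0.5 μM, a change of -0.53 ± 0.14 (SE, adjusted p = 0.0486). In neither gene did the groups overlap. Both calls were lost without any 1 sample of day 4, with adjusted p-values of 0.0702 to 0.352 for *CA12* and 0.0629 to 0.402 for *EGLN1*.

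**Figure D3:**
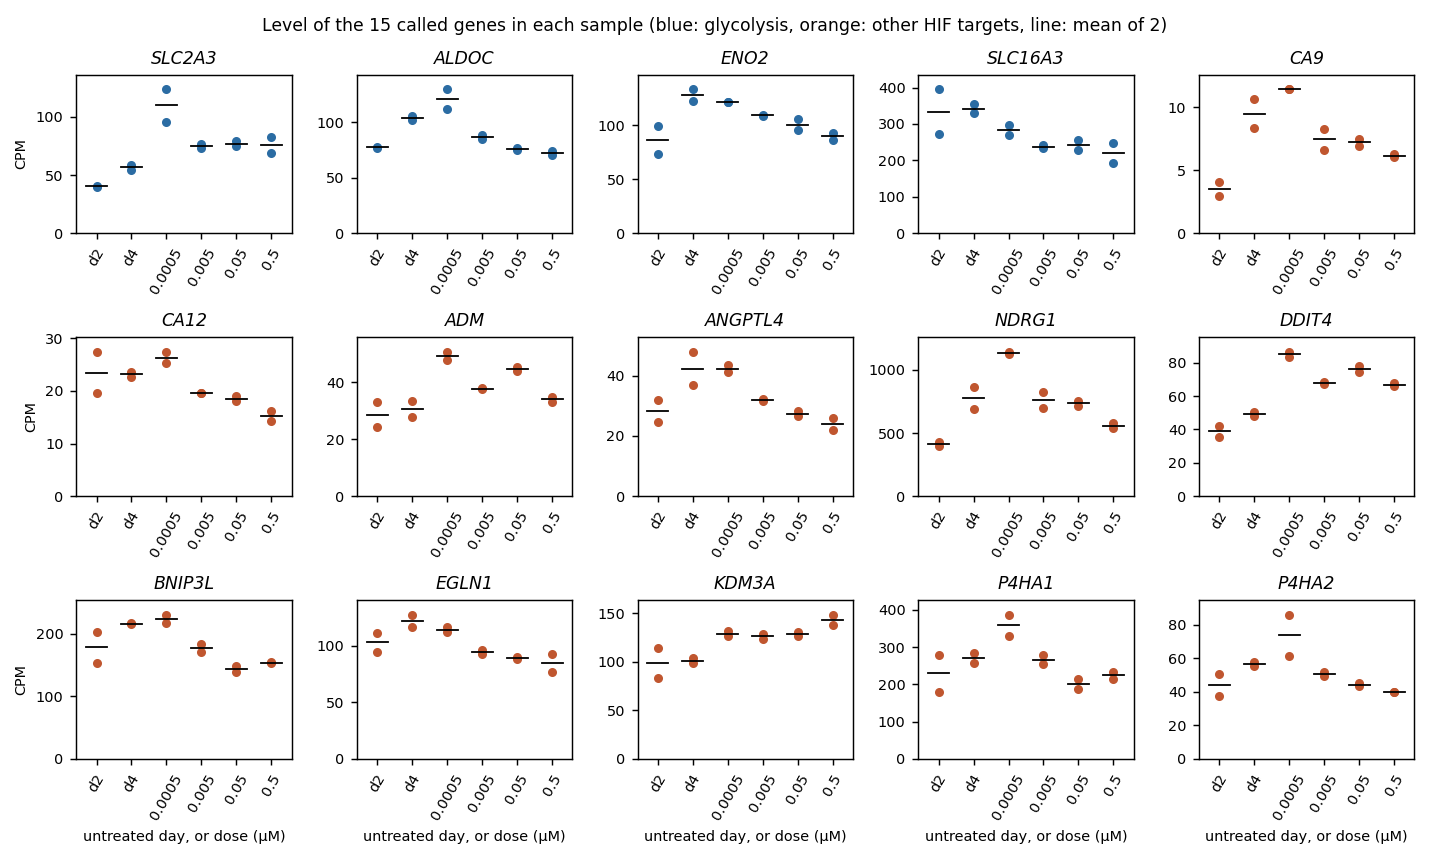
CPM (y axis, linear, from 0) of the 15 genes that passed the test in at least 1 of the planned comparisons, in untreated cells of day 2 and day 4 (d2, d4) and at the 4 doses (x axis). Each point is a sample and each line the mean of the 2 samples. *SLC2A3* and *DDIT4* lay above the untreated samples at every dose, *KDM3A* reached its highest mean at 0.5 μM, and *ALDOC*, *ANGPTL4*, *CA12* and *NDRG1* were lowest among the doses at 0.5 μM.

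The slope on dose was fitted in the 8 treated samples, per 10-fold increase, and does not use the untreated cells. It was negative for 38 of the 39 genes, all but *KDM3A*, whereas 12036 of the 25249 genes tested and 6946 of the 11193 genes above 8 CPM had a negative slope. It passed for 9 of the 39 genes (23.1%), all downward, where 3.06% of all genes passed. Among the glycolysis genes 2 of 21 passed (9.52%), and among the other HIF targets 7 of 18 (38.9%). The median slope was -0.11 in the glycolysis genes and -0.14 in the other targets, against 0.01 over all genes and -0.02 over those above 8 CPM. With offsets for GC content and length 37 of the 39 slopes were negative. Of the 9 called slopes, only those of *ANGPTL4*, *CA12* and *P4HA2* passed with each treated sample left out in turn.

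In the glycolysis genes the slope of *ALDOC* was -0.25 ± 0.04 (SE, n = 8; adjusted p = 0.00588), and without replicate 1 of 0.0005 μM it was again -0.25 with an adjusted p of 0.06. *ENO2* measured 121 and 121 CPM at 0.0005 μM, 109 and 110 CPM at 0.005 μM, 95.3 and 105 CPM at 0.05 μM, and 86.3 and 93.3 CPM at 0.5 μM. Its slope of -0.14 ± 0.04 (SE) passed narrowly (adjusted p = 0.042) and was lost when any 1 treated sample other than replicate 2 of 0.05 μM was left out (adjusted p = 0.0624 to 0.253). The other 19 slopes ran from -0.17 in *PGK1* to -0.07 in *TPI1* and did not pass.

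Of the other HIF targets, *NDRG1* had the steepest slope, -0.31 ± 0.05 (SE, adjusted p = 0.00431). It measured 1143 and 1124 CPM at 0.0005 μM, 696 and 823 CPM at 0.005 μM, 711 and 757 CPM at 0.05 μM, and 577 and 541 CPM at 0.5 μM, so the lowest dose was above and the highest below the overlapping middle doses. Without replicate 1 of 0.0005 μM the slope was -0.29 with an adjusted p of 0.0755. The slope of *ANGPTL4* was -0.27 ± 0.04 (SE, adjusted p = 0.00105), and it passed with each treated sample left out.

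The carbonic anhydrases behaved alike in sign. *CA9* measured 11.5 and 11.4 CPM at 0.0005 μM, 6.64 and 8.3 CPM at 0.005 μM, 6.94 and 7.49 CPM at 0.05 μM, and 6.27 and 6.03 CPM at 0.5 μM, with the lowest dose apart from the rest. Its slope was -0.28 ± 0.05 (SE, adjusted p = 0.00907) and was lost without either sample of 0.0005 μM (adjusted p = 0.0596 and 0.123). The overlapping *ARHGEF39* had a slope of the other sign, 0.23 ± 0.05 (SE, adjusted p = 0.0166). *CA12* measured 25.3 and 27.4 CPM, 19.6 and 19.6 CPM, 19 and 18 CPM, and 16.2 and 14.3 CPM at the 4 doses in rising order, each pair below the one before. Its slope of -0.25 ± 0.04 (SE, adjusted p = 0.00279) passed with each treated sample left out. Taken from the dose means in the model of all 12 samples, the slopes of *CA12* and *CA9* did not pass (adjusted p = 0.0544 and 0.0627), nor did those of *ENO2*, *P4HA1* and *BNIP3L* (0.206, 0.104 and 0.0929).

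The collagen prolyl hydroxylase subunits fell together. *P4HA2* measured 61.6 and 86.2 CPM at 0.0005 μM, 51.6 and 49.7 CPM at 0.005 μM, 45.1 and 43.5 CPM at 0.05 μM, and 40.1 and 40.1 CPM at 0.5 μM, with a slope of -0.29 ± 0.05 (SE, adjusted p = 0.00528) that passed with each treated sample left out. *P4HA1* measured 331 and 387, 254 and 278, 215 and 187, and 234 and 215 CPM, with a slope of -0.24 ± 0.05 (SE, adjusted p = 0.028). For *BNIP3L* the slope was -0.19 ± 0.04 (SE, adjusted p = 0.0296), and that of the overlapping *PNMA2* was -0.14 ± 0.04 (SE, adjusted p = 0.0461). The slopes of *P4HA1* and *BNIP3L* were both lost without either sample of 0.0005 μM, replicate 2 of 0.005 μM or replicate 2 of 0.5 μM (adjusted p = 0.0502 to 0.177 and 0.0574 to 0.22). *EGLN3* lay at the threshold without passing, with a slope of -0.16 ± 0.04 (SE, adjusted p = 0.05).

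**Figure D4:**
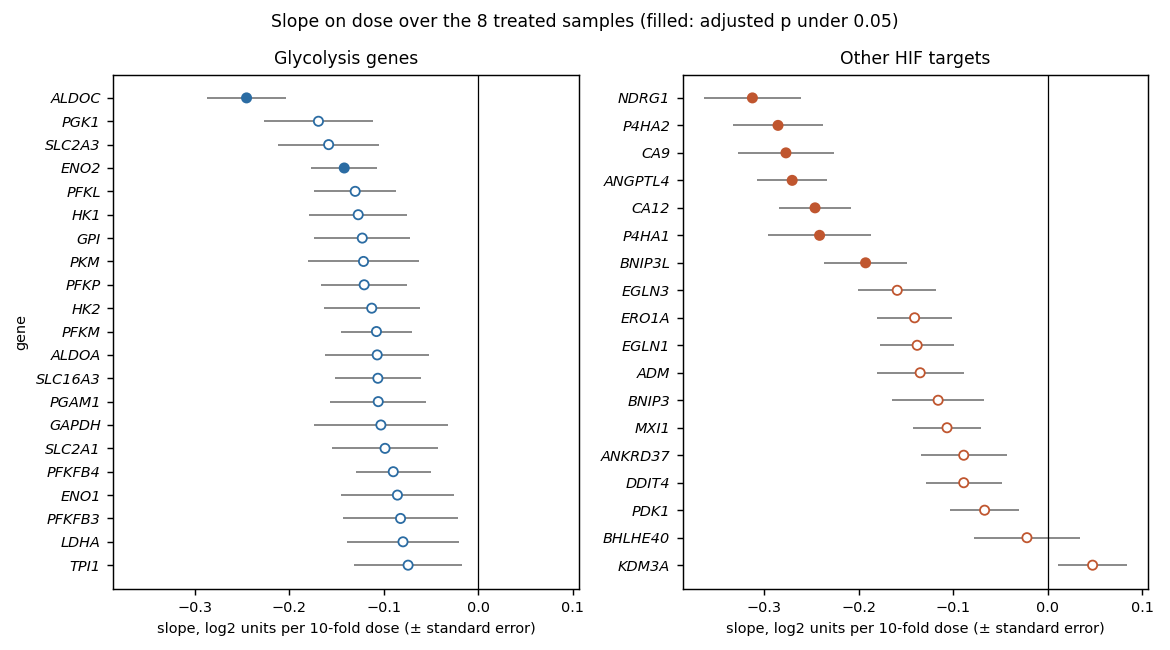
Slope of log2 expression per 10-fold increase in Paclitaxel (x axis, log2 units; bars are standard errors) for each of the 39 genes (y axis) over the 8 treated samples, in 2 panels with a common scale. Filled points passed at an adjusted p under 0.05; all points but that of *KDM3A* lie left of 0, with *NDRG1* farthest at -0.31.

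The 8 treated samples were last compared with the 4 untreated samples. *SLC2A3*, *ADM*, *DDIT4* and *KDM3A* rose and *SLC16A3* fell, 5 of the 39 genes (12.8%), where 24.4% of all genes passed. As the untreated samples include both days and the treated samples only day 4, time and drug cannot be told apart in this comparison. The median log2 change was -0.03 for the glycolysis genes and 0.06 for the other targets, with 18 genes higher and 21 lower. Over the 11193 genes above 8 CPM the median was -0.15, with 2918 higher and 8275 lower. With the offsets for GC content and length, which moved the median of all genes from -0.002 to 0.11, 13 were lower and the medians were 0.10 and 0.19.

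The change of *SLC2A3* was 0.80 ± 0.16 (SE, n = 8 against 4; adjusted p = 0.00159) and that of *DDIT4* 0.74 ± 0.11 (SE, adjusted p = 0.000227), and both passed under every alternative run. *ADM* rose by 0.48 ± 0.13 (SE, adjusted p = 0.012). *KDM3A*, a histone demethylase, measured 83.6 and 114 CPM on day 2, 98.4 and 104 CPM on day 4, and 123 to 149 CPM in the 8 treated samples, which were all above the untreated ones. Its change was 0.40 ± 0.10 (SE, adjusted p = 0.00664), and against C2 alone the mean of the doses had an adjusted p of 0.0767 for *KDM3A* and 0.0642 for *ADM*.

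*SLC16A3* encodes MCT4, the exporter of lactate in glycolytic cells. It measured 396 and 272 CPM on day 2 and 354 and 329 CPM on day 4, then 298 and 270.4 CPM at 0.0005 μM, 234 and 242 CPM at 0.005 μM, 257 and 229 CPM at 0.05 μM, and 249 and 193 CPM at 0.5 μM. Every treated sample was below both samples of day 4, although replicate 2 of day 2 overlapped the pair at 0.0005 μM. The log2 change was -0.45 ± 0.12 (SE, adjusted p = 0.011). It was lost without replicate 1 of day 2 (-0.37, adjusted p = 0.0502), with the GC and length offsets (-0.25, adjusted p = 0.0574) and against C2 alone (-0.48, adjusted p = 0.0568).

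Further genes of the same pathways were read from lists by name. Of 31 tested genes that also act in glucose metabolism, 11 passed between treated and untreated samples (35.5%, against 24.4% of all genes), 3 higher and 8 lower. Of their slopes 2 passed, both downward (6.45%, against 3.06% of all genes). *SLC16A1*, the lactate transporter MCT1, was higher with drug but low throughout: it measured 0.49 to 1.27 CPM in the untreated and 2.36 to 2.93 CPM in the treated samples (log2 change 1.77 ± 0.20 (SE), adjusted p = 2.06e-05). The hexokinase-like *HKDC1* was likewise higher at a low level, with 0.2 to 0.52 CPM untreated and 0.93 to 1.91 CPM treated (2.19 ± 0.30, adjusted p = 8.9e-05). *SLC16A7*, the transporter MCT2, fell by 0.70 ± 0.11 (SE, adjusted p = 0.000265), and the slope of *PGM1*, an enzyme of glycogen metabolism, was -0.24 ± 0.04 (SE, adjusted p = 0.00496). *LDHB*, the second lactate dehydrogenase subunit, measured 621 to 1442 CPM and passed in none of the comparisons.

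Among 16 tested genes that make up or regulate HIF, only *HIF1A* passed in any of the comparisons, 1 of 16 between treated and untreated samples (6.25%, against 24.4% of all genes). Its mRNA measured 410 to 526 CPM in the untreated and 346 to 423 CPM in the treated samples (log2 change -0.37 ± 0.10 (SE), adjusted p = 0.0126), ranges that overlap. *EPAS1*, which encodes HIF-2α, its partner *ARNT* and *VHL*, which targets HIF for degradation, did not pass, with changes of 0.13 ± 0.20, 0.04 ± 0.09 and -0.03 ± 0.10 (SE) between treated and untreated samples. HIF-1α is governed largely at the level of the protein, which was not measured.

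Of 35 further HIF targets tested, 29 had a negative slope, as had 12036 of the 25249 genes and 6946 of the 11193 above 8 CPM. The slope passed for 6 of them, 5 downward and 1 upward (17.1%, against 3.06% of all genes). *IGFBP3*, a binding protein of insulin-like growth factors, measured 452 and 472 CPM at 0.0005 μM and 198 and 177 CPM at 0.5 μM, with a slope of -0.42 ± 0.05 (SE, adjusted p = 0.000284). The hormone *STC1* measured 339 and 428 CPM at 0.0005 μM and 179 and 166 CPM at 0.5 μM (slope -0.38 ± 0.05 (SE), adjusted p = 0.000605). *LOX*, which crosslinks collagen, rose between the untreated days by 1.03 ± 0.13 (SE, adjusted p = 0.00414), and its slope was -0.34 ± 0.04 (SE, adjusted p = 0.000596). All 3 had their highest mean at 0.0005 μM, as *NDRG1* and *CA9* had.

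*HMOX1*, the haem oxygenase that also answers to oxidative stress, went the other way. It measured 6.47 to 10.5 CPM in the untreated samples, 28.5 and 27.6 CPM at 0.0005 μM, and 60.3 and 51.8 CPM at 0.5 μM, and its slope was 0.39 ± 0.07 (SE, adjusted p = 0.00961). Between treated and untreated samples 9 of the 35 passed, 5 higher and 4 lower (25.7%, against 24.4% of all genes). *STC2* was higher in treated samples at 3.07 to 4.49 CPM, against 1.42 to 1.58 CPM (1.32 ± 0.15 (SE), adjusted p = 1.74e-05). The angiogenic factor *VEGFA* was also among the higher genes, at 146 to 216 CPM against 96.9 to 149 CPM (0.60 ± 0.13 (SE), adjusted p = 0.00275), and the ranges overlapped at 1 untreated sample.

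The condition with the highest mean is given as a description, with no test. Among the 4 doses the highest mean was at 0.0005 μM in 20 of 21 glycolysis genes and 16 of 18 other targets (92.3% of the 39), against 30.4% of all genes and 47.1% of the genes above 8 CPM. Over all 6 conditions it was at 0.0005 μM in 25 of the 39 (64.1%), against 13.8% of all genes. The lowest of the 4 doses was 0.5 μM in 26 genes, 0.05 μM in 10 and 0.005 μM in 3, and over all 25249 genes 0.5 μM in 5389, 0.05 μM in 6819 and 0.005 μM in 4678. The lowest of the 6 conditions was day 2 in 8 of the 18 other targets and in 3 of the 21 glycolysis genes, against 5914 of all genes and 1027 of the 11193 above 8 CPM.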

How the data were processed

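RNA from 12 samples was sequenced as paired 100-base reads. The authors removed adapters and poor-quality bases, aligned to GRCh37 and deposited whole-number counts of uniquely aligned reads in exons per gene; the submitters' processing notes name FastQC 0.11.9, Trimmomatic 0.39 and STAR 2.7.5. Neither normalization nor pooling was applied. Symbols came from a table of gene names (55665 of 63568 identifiers), and exon lengths and GC content from GENCODE release 44 on GRCh37 (88.2% of tested genes).

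In R 4.3.3, counts were scaled by TMM, filtered with filterByExpr and fitted with edgeR 4.0.16 (robust quasi-likelihood). Tests were two-sided, with Benjamini-Hochberg adjustment over 25249 genes and a threshold of 0.05. Standard errors are the absolute log2 change divided by the square root of F. Log2 CPM used a prior count of 2. Alternatives were DESeq2 1.42.0, RLE scaling, other filters, a replicate block, GC and length offsets, smaller sets of samples, and each sample left out. The procedures were tested on simulated data with known changes. The genes and lists were chosen with earlier results of these data known. All 39 genes could be named; sample values are given for genes called at least once, in the groups compared, and for the 3 most abundant per length of each group, while those of *EGLN3*, *HK2*, *SLC2A1* and *ALDOA* were added after their values were seen. From other lists, at most 5 called genes each are named, plus *HIF1A*, *EPAS1*, *ARNT*, *VHL*, *LDHB*, *SLC16A1* and *VEGFA*. A further gene of the other lists that met this rule is left out and not reported here. Whether replicate numbers pair the samples was not settled, and the reported fits used no pairing. Over 11193 genes, the gap in log2 CPM between replicates 1 and 2 was correlated between conditions. This correlation was above 0.1 in 8 of 15 pairs of conditions, with both signs present (-0.597 to 0.697).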

Additional observations from a re-analysis of the deposited data

How the results depend on the processing

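None of the calls among the 39 genes turned its direction under any alternative run; calls of genes from the other lists were not refitted. Of 16 medians of the 2 groups of genes, 6 changed sign under at least 1 alternative: those of the glycolysis genes between the days (reported value 0.0159), at 0.0005 μM (-0.027 without replicate 2 of C2), at 0.05 μM (0.0083 with GC and length offsets) and between treated and untreated samples (0.0956 with the offsets), and those of the other HIF targets at 0.005 μM and between treated and untreated samples, below. The offsets also moved the median of all genes, to 0.1198 at 0.005 μM, 0.0796 at 0.05 μM and 0.1087 between treated and untreated samples. The medians that changed sign with the offsets were below these values, which include genes of low count. No such median was taken for the genes above 8 CPM. Counts below are of the 39 genes passing the test, and the cause of each shift was not tested. With DESeq2 the count was 1 at 0.005 μM (0 in the reported fit) and 7 at 0.05 μM (4). It was 14 at 0.5 μM (4) and 16 for the slope (9). Of all genes, DESeq2 called 274 between the days, 1173 at 0.0005 μM and 1360 at 0.005 μM. The reported fit called 82, 592 and 827 of all genes there. With RLE scaling 1 of the 39 and 77 of all genes passed between the days (2 and 82). In a fit of the 4 samples compared alone, the count of the 39 was 0 between the days, 6 at 0.0005 μM (3) and 6 at 0.005 μM. In those 3 fits 0, 2624 and 2592 of all genes passed. The count of the 39 was 7 at 0.05 μM, 16 at 0.5 μM and 16 between the first 2 doses (0). With GC and length offsets the count of the 39 was 6 between the days, 2 at 0.005 μM and 9 at 0.5 μM. With a replicate block added it was 6, 2 and 10, and 7 at 0.05 μM. Of all genes, 212 between the days and 1342 at 0.005 μM passed with the offsets, and 197 and 1287 with the block added. The slope taken from dose means in the model of all 12 samples gave 4 of the 39. The mean of the 4 doses against C2 gave 3 (5).

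With those offsets, alone and with the replicate block, the median log2 change of the other HIF targets was 0.3831 and 0.3905 between the days, 0.0222 and 0.0229 at 0.005 μM, 0.1871 and 0.1868 between treated and untreated samples (-0.0936 against C2 alone), and -0.2339 and -0.2344 between the first 2 doses. That of the glycolysis genes was -0.0624 and -0.0627 at 0.005 μM and -0.2013 and -0.2053 at 0.5 μM. The block without offsets gave 2, 3, 0 and 4 calls in the first 4 comparisons, 6 for the slope and 5 between treated and untreated samples. It lost the slopes of *ENO2*, *P4HA1* and *BNIP3L* and the fall of *ALDOC* at 0.05 μM; replicate numbers did not pair the samples. Without the filter on low counts the falls of *ALDOC* at 0.05 and 0.5 μM and of *EGLN1* at 0.5 μM did not pass (adjusted p = 0.183, 0.0527 and 0.0575).

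With each sample left out in turn, the count ranged from 0 to 13 between the days, 0 to 7 at 0.0005 μM, 0 to 6 at 0.005 μM, 0 to 12 at 0.05 μM, 0 to 21 at 0.5 μM and 3 to 12 for the slope. The highest counts between the days and against C2 came without a sample of C1. More of all genes also passed in those fits than in the reported fit. Without replicate 1 of C2, fewer of all genes passed in each of these comparisons than in the reported fit. The median of the glycolysis genes ranged from -0.0667 to 0.3847 between the days and from -0.4894 to -0.207 at 0.5 μM. That of the other HIF targets ranged from 0.2373 to 0.471 between the days, -0.3588 to -0.2032 at 0.05 μM, -0.442 to -0.2498 at 0.5 μM, -0.1792 to -0.1173 for the slope and -0.0372 to 0.1442 between treated and untreated samples. A pair of samples against a pair cannot reach an exact permutation p below 0.333, so single-gene calls rest on the spread shared across genes.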
